A study of Homo sapiens with 6 samples.

Results

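The 37 genes of the human mitochondrial genome were examined in the TC71 Ewing sarcoma cell line after knockdown of EHD1. They were found as the rows of the count table whose symbol begins with MT-, out of 60676 rows in all, and comprise 13 mRNAs, 2 rRNAs and 22 tRNAs. All 37 rows had 10 or more counts in 3 or more libraries and were tested, as were 16785 genes of the table in all. Both groups were stable polyclonal TC71 lines carrying a lentiviral construct that expresses a Dox-inducible shRNA with GFP, and both received 0.5 µg/ml Dox over 3 days before RNA was taken. The control group expressed a non-targeting shRNA (shNTC+Dox, 3 libraries), and the knockdown group an shRNA against EHD1, a regulator of endocytic recycling (shEHD1+Dox, 3 libraries). Which of the study's EHD1 shRNAs it was is not given in the sources used here. No source used here states that the 3 libraries of a group came from separate cultures, so p-values measure the spread between these libraries, which may be technical. Dox is itself an inhibitor of bacterial and mitochondrial ribosomes, and it was present in both groups. Cells without Dox were not analysed here.

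Total counts ran from 22711235 to 30582187 per library. EHD1 kept 29.6% of its control level (log2 fold change -1.76, SE 0.12, edgeR adjusted p = 1.35e-04). Of 12 Ewing sarcoma genes fixed as markers, all 12 were tested and had a mean of at least 190 counts. BCL11B and STEAP1 fell (log2 fold change -0.75 and -0.43) and CD99 rose (0.33), where 8.75% of all genes tested fell and 8.59% rose. Among 18 markers of other cell types, CD3E, VWF, MYOD1 and DES had no count in any library, whereas the mesenchymal gene PDGFRB had a mean of 2613 counts, KRT18 of 734, COL1A1 of 527 and ACTA2 of 221, and these 4 did not pass. LUM did not pass either, and DCN fell (log2 fold change -1.01, SE 0.19, edgeR adjusted p = 0.00778). The summed level of the 18 markers of other cell types, of which 6 were tested, was 114 to 178 TMM-normalized counts per 1e6 library counts (CPM) in shNTC+Dox and 152 to 179 CPM in shEHD1+Dox. The shNTC+Dox replicate 3 library stood apart from the other controls: its counts differed from those of replicates 1 and 2 by a chi-square per degree of freedom of 26.4 and 27.9, against 5.64 between replicates 1 and 2. In shEHD1+Dox, replicate 2 stood apart, at 18.7 and 17.6 from replicates 1 and 3, which differed less from each other, and it was the lowest of its group for both rRNAs and 15 of the 22 tRNA rows.

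The mitochondrial genome is a small circle whose genes are read from promoters on both strands into long precursors. The heavy-strand promoter drives 12 of the mRNAs, both rRNAs and 14 tRNAs. The light-strand promoter drives MT-ND6 and 8 tRNAs. The tRNAs lie between many of the other genes, and cutting them out releases mRNAs and rRNAs. Most of these then receive a short poly(A) tail. The mRNAs encode core subunits of respiratory chain complexes I, III and IV and of ATP synthase, while every factor that transcribes, processes and stabilises these RNAs is encoded in the nucleus.

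The compactness of the genome is visible in its sequence and sets what a count can mean. The stretch below runs from the last 15 bases of MT-RNR2 to the first 15 bases of MT-ND1 on the plus strand of hg38 (chrM:3215-3321). It is shown for the log2 fold changes of the rows on its sides, -0.52 for MT-RNR2, which did not pass, and -1.28 for MT-ND1. The difference between these rows was not tested. Capitals mark the tRNA gene MT-TL1, which starts at the base after the 16S rRNA and is 75 bases long, the length of one sequencing read.
MT-RNR2 to MT-ND1: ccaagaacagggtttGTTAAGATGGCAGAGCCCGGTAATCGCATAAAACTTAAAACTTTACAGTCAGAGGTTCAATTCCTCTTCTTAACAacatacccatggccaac
The next stretch (chrM:9976-10073) joins the mRNAs that fell least, MT-CO3 and MT-ND3, with MT-TG in capitals.
MT-CO3 to MT-ND3: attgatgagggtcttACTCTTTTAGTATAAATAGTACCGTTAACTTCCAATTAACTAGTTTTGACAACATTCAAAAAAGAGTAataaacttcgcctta

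Some genes overlap, and their reads cannot be fully separated. MT-ATP8 and MT-ATP6 share 46 bases in different reading frames, and MT-ND4L and MT-ND4 share 7. Capitals mark the shared bases, which begin with the ATG start codon of the second gene in each pair.
MT-ATP8 and MT-ATP6 (chrM:8521-8578): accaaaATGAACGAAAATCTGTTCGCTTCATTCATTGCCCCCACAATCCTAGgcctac
MT-ND4L and MT-ND4 (chrM:10754-10772): actccaATGCTAAaactaa
The library kit named in the study's methods loses the information on RNA strand. Reads of a light-strand gene therefore cannot be told apart from those of heavy-strand RNAs, precursor or mature, that run across it. This concerns MT-ND6 and the 8 light-strand tRNAs.

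Mitochondrial RNA took a smaller share of the shEHD1+Dox libraries. All 37 rows together held 3.57%, 3.88% and 4.04% of the counts of shNTC+Dox replicates 1, 2 and 3, and 2.71%, 1.94% and 2.12% of those of shEHD1+Dox replicates 1, 2 and 3. The groups did not overlap, and the mean share in shEHD1+Dox was 58.9% of that in shNTC+Dox. The 13 mRNAs went from 2.73% ± 0.41 to 1.47% ± 0.22 of the library and the 22 tRNAs from 0.0313% ± 0.0055 to 0.0177% ± 0.0048, both without overlap (SD, n = 3 each). The 2 rRNAs went from 1.07% ± 0.20 to 0.763% ± 0.194, and here the groups overlapped, through shNTC+Dox replicate 3 at 0.836%. The other 2 controls, at 1.18% and 1.20%, lay above all 3 knockdown libraries, the highest of which was at 0.956%. In bulk libraries, fewer mitochondrial genomes per cell and less RNA per genome cannot be told apart.

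**Figure D1:**
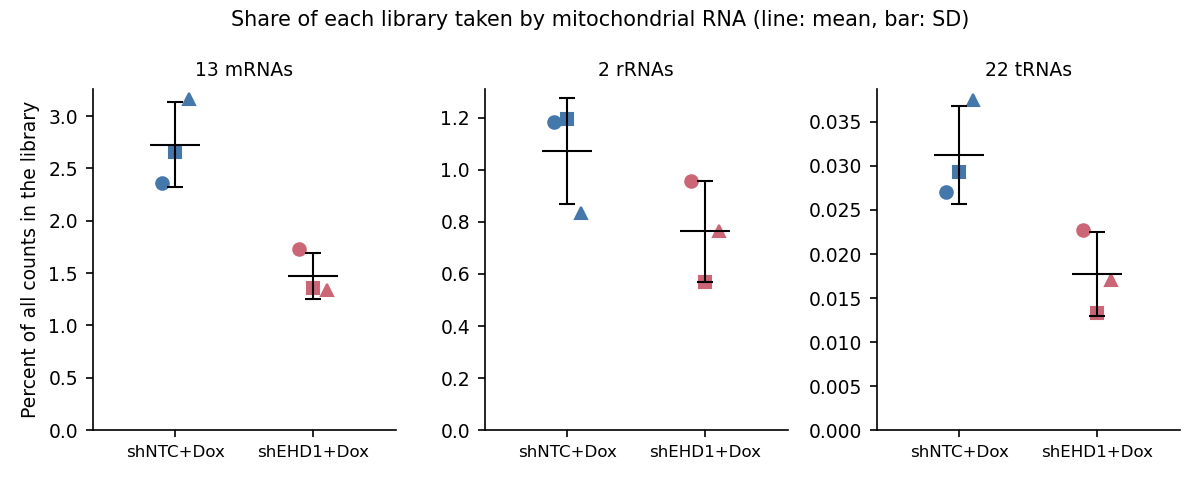
Percent of all counts in a library (y axis) on the 13 mRNAs, 2 rRNAs and 22 tRNAs, for shNTC+Dox and shEHD1+Dox; symbols are the 3 libraries (circle, square and triangle for replicates 1, 2 and 3), the line is the mean and the bar the SD. The mRNA and tRNA shares of the groups do not overlap, and the rRNA share does, with shNTC+Dox replicate 3 at 0.836%.

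Each of the 37 rows had a log2 fold change below 0, and 23 of them fell at an edgeR adjusted p under 0.05 (quasi-likelihood test, Benjamini-Hochberg over all genes tested), where 8.75% of all genes tested fell and 17.3% passed in either direction. No row rose, at the adjusted or the unadjusted p or under the Wald test of DESeq2. Of the 23, 8 also fell by 2-fold or more, where 1.74% of all genes tested did and 1.08% rose as far. The median log2 fold change was -0.85 over the 37 rows, against 8e-04 over all genes tested. In 28 of the 37 rows, the highest knockdown library was under the lowest control, which held for 19.4% of all genes tested, and in none was the order turned around, which held for 19.9%. Without shEHD1+Dox replicate 3 the number of rows that fell was 15, without shNTC+Dox replicate 3 it was 19, and without shEHD1+Dox replicate 2 it was 18.

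All 13 mRNAs fell, and in each of them the groups did not overlap. Their log2 fold changes ran from -1.28 to -0.48 with a median of -0.95. The shNTC+Dox replicate 3 library was the highest control for all 13 and shNTC+Dox replicate 1 the lowest, while shEHD1+Dox replicate 1 was the highest knockdown library for all 13. Without shNTC+Dox replicate 3, all 13 still fell, with a median of -0.81. These falls are relative to the whole library: when the summed MT- count was taken as library size, the median was -0.12, and MT-ND3, MT-ND4L and MT-CO3 lay above 0 (0.34, 0.01 and 0.21).

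**Figure D2:**
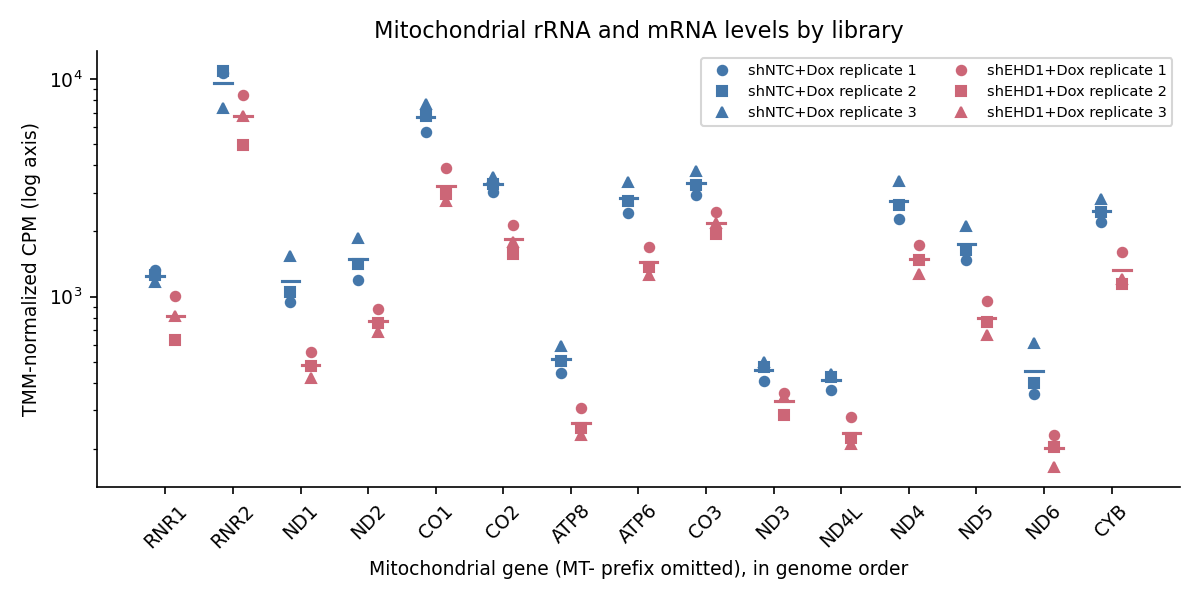
TMM-normalized CPM (log axis) of the 2 rRNAs and 13 mRNAs in genome order, by library; blue symbols are shNTC+Dox and red symbols shEHD1+Dox, with circle, square and triangle for replicates 1, 2 and 3 and a line at each group mean. Every mRNA shows the 3 red symbols below the 3 blue ones, from MT-CO1 (6688 against 3207 CPM) to MT-ND6 (457 against 201 CPM), whereas MT-RNR2 overlaps.

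Complex I, the NADH dehydrogenase that feeds electrons into the chain, takes 7 subunits from this genome, and all 7 mRNAs fell. MT-ND1 fell furthest of the 13. It was at 949, 1055 and 1531 CPM in the 3 controls and at 555, 480 and 425 CPM in the 3 knockdown libraries, a log2 fold change of -1.28 (SE 0.19, edgeR adjusted p = 0.00447). Its highest knockdown library thus lay well below its lowest control, by a factor of 1.71. MT-ND6, the light-strand mRNA, was at 358, 401 and 612 CPM in shNTC+Dox, against 233, 205 and 166 CPM in shEHD1+Dox (log2 fold change -1.18, SE 0.22, edgeR adjusted p = 0.0158). The strand of the reads on the MT-ND6 row is not known. MT-ND5, whose annotated 3′ end meets that of MT-ND6 on the opposite strand, was at 1473, 1636 and 2115 CPM and at 953, 768 and 669 CPM (log2 fold change -1.13, SE 0.17, edgeR adjusted p = 0.00415). Both were highest in shNTC+Dox replicate 3 and lowest in shEHD1+Dox replicate 3. Without shEHD1+Dox replicate 2, MT-ND6 kept its size (-1.20) but not its call (edgeR adjusted p = 0.0516).

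MT-ND2 and MT-ND4 fell by similar amounts. MT-ND2 was at 1196, 1408 and 1866 CPM in shNTC+Dox, against 873, 753 and 691 CPM in shEHD1+Dox, with a log2 fold change of -0.95 (SE 0.16). MT-ND4 was at 2268, 2632 and 3380 CPM and 1732, 1465 and 1267 CPM, with a log2 fold change of -0.89 (SE 0.16). MT-ND4L, which shares a mature transcript with MT-ND4, went from 374, 429 and 441 CPM to 279, 224 and 210 CPM (log2 fold change -0.80, SE 0.11), and the 3 changes lie within their errors of one another. MT-ND3 fell least among the 13, from 408, 477 and 501 CPM to 361, 286 and 347 CPM (log2 fold change -0.48, SE 0.11, edgeR adjusted p = 0.0186). Its groups were separated by a narrow margin, a factor of 1.13 between the lowest control and the highest knockdown library. It lost its call without shNTC+Dox replicate 2 (edgeR adjusted p = 0.0528) and without shEHD1+Dox replicate 3 (edgeR adjusted p = 0.057).

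The single mRNA of complex III fell in the middle of this range. MT-CYB encodes cytochrome b, the subunit that oxidises ubiquinol, and was at 2197, 2433 and 2813 CPM in shNTC+Dox, against 1607, 1147 and 1209 CPM in shEHD1+Dox. This gave a log2 fold change of -0.91 (SE 0.14, edgeR adjusted p = 0.00435), which left 53.2% of the control level.

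Complex IV, the cytochrome c oxidase that reduces oxygen, takes its 3 catalytic core subunits from this genome, and all 3 mRNAs fell. MT-CO1, which was the third most abundant row of the whole table after TMM normalization, fell from 5727, 6713 and 7624 CPM to 3904, 2965 and 2751 CPM (log2 fold change -1.06, SE 0.15, edgeR adjusted p = 0.00289). MT-CO2 fell from 3025, 3298 and 3536 CPM to 2140, 1571 and 1782 CPM (log2 fold change -0.84, SE 0.12, edgeR adjusted p = 0.00259). MT-CO3 fell from 2938, 3256 and 3775 CPM to 2434, 1929 and 2166 CPM (log2 fold change -0.61, SE 0.12, edgeR adjusted p = 0.00963). MT-CO1 and MT-CO3 thus kept 47.9% and 65.5% of their control level. Per kilobase, the levels of the 3 mRNAs in shNTC+Dox were close, at 4337 CPM per kb for MT-CO1, 4804 for MT-CO2 and 4238 for MT-CO3, and in shEHD1+Dox they were 2080, 2677 and 2776.

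The ATP synthase mRNAs MT-ATP8 and MT-ATP6, which encode the subunits that support and form the proton channel, are carried on one transcript and fell together. MT-ATP6 was at 2419, 2748 and 3351 CPM in shNTC+Dox, against 1690, 1372 and 1258 CPM in shEHD1+Dox, a log2 fold change of -0.98 (SE 0.14, edgeR adjusted p = 0.00327). MT-ATP8 went from 448, 505 and 591 CPM to 307, 248 and 232 CPM, a log2 fold change of -0.97 (SE 0.13, edgeR adjusted p = 0.00225). The ratio of MT-ATP8 to MT-ATP6 counts was 0.182 ± 0.005 across the controls and 0.182 ± 0.002 across the knockdown libraries (SD, n = 3 each). MT-CO3 follows MT-ATP6 with 1 base in common, yet its counts per MT-ATP6 count were 1.21, 1.18 and 1.13 in shNTC+Dox, against 1.44, 1.41 and 1.72 in shEHD1+Dox. The groups did not overlap in this ratio, which was chosen after the values were seen and was not tested.

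The shares of the mRNA pool did not overlap between the groups for 6 of the 13 mRNAs. Measured in CPM, 19.4% of all genes tested were lower in shEHD1+Dox without overlap and 19.9% higher. As a share of all mitochondrial mRNA counts, MT-CO3 held 12.4%, 12.1% and 11.7% of the pool in shNTC+Dox replicates 1 to 3, against 14.3%, 14.4% and 16.4% in shEHD1+Dox replicates 1 to 3. MT-ND3 held 1.72%, 1.77% and 1.56% in the controls and 2.11%, 2.13% and 2.63% in the knockdown libraries. The share of MT-ND4L was also higher in each knockdown library than in each control, by a small gap (1.593% to 1.672% against 1.373% to 1.590%). Shares were lower without overlap for MT-CO1 (24.2% ± 0.6 to 21.96% ± 1.0), MT-ND5 (6.28% ± 0.27 to 5.46% ± 0.34) and MT-ND1 (4.22% ± 0.47 to 3.35% ± 0.20). The shares of the other 7 mRNAs overlapped, MT-ND6 among them at 1.48% to 1.90% and 1.26% to 1.53%. Shares of one pool are tied to each other and were described without a test.

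**Figure D3:**
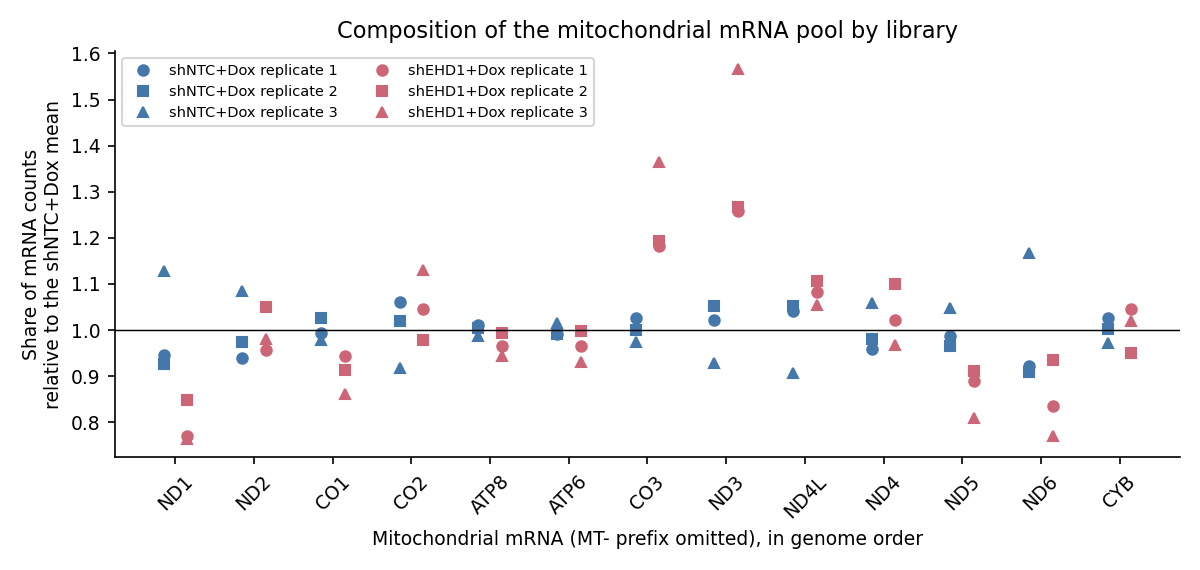
Share of each mRNA among all mitochondrial mRNA counts, divided by its shNTC+Dox mean (y axis), for the 13 mRNAs in genome order; blue symbols are shNTC+Dox and red symbols shEHD1+Dox libraries (circle, square and triangle for replicates 1, 2 and 3). MT-CO3, MT-ND3 and MT-ND4L lie above their controls in all 3 knockdown libraries, and MT-ND1, MT-CO1 and MT-ND5 lie below them.

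The size of the fall was set against position, base composition and length. Across the 12 heavy-strand mRNAs, which share precursors and libraries, the log2 fold change had a Pearson's r of 0.352 and a Spearman's rho of 0.343 with the distance from the start of MT-TF, the first gene after the heavy-strand promoter. Across all 13, which share libraries and depth, r was -0.303 with GC content (rho -0.116) and -0.391 with length (rho -0.308). These are weak relations over few genes and are given as descriptions. The base composition sets MT-ND6 apart from the others, since it is 35.6% G and 7.0% C as read in its own direction, whereas the heavy-strand mRNAs hold between 6.3% and 16.2% G.

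The annotated 3′ ends of the mRNAs also differ. In 6 mRNAs the last codon is cut short by annotation, and the poly(A) tail completes the UAA stop. The final 18 bases of the mRNAs with the largest and the smallest falls are shown for this reason, with the stop codon or its remnant in capitals.
MT-ND1 (chrM:4245-4262): cattccccctcaaaccTA
MT-ND3 (chrM:10387-10404): gattagactgaaccgaaT
MT-CO3 (chrM:9973-9990): tctattgatgagggtctT
MT-ND5 (chrM:14131-14148): ctactcctaatcacaTAA
MT-ND6 (chrM:14149-14166, minus strand): attgctcgggggaatAGG
The 6 mRNAs with a shortened codon had a median log2 fold change of -0.90, with a range from -1.28 to -0.48. The 7 with a full codon by annotation had a median of -0.98, with a range from -1.18 to -0.80. MT-ATP6 was placed among these 7, although the last base of its annotated stop codon (chrM:9207) is also the first base of MT-CO3. Its placing is therefore uncertain. The mRNAs with the largest and the smallest fall, MT-ND1 and MT-ND3, both end in a shortened codon.

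The log2 fold changes of the rRNAs lay at the small end of the range of the mRNAs. MT-RNR1, the 12S rRNA of the small mitochondrial ribosomal subunit, was at 1318, 1254 and 1171 CPM in shNTC+Dox, against 1009, 634 and 813 CPM in shEHD1+Dox, without overlap (log2 fold change -0.61, SE 0.15, edgeR adjusted p = 0.0289). This call did not hold without any one of shNTC+Dox replicates 1, 2 or 3 (edgeR adjusted p = 0.0834, 0.0664 and 0.0834) or without shEHD1+Dox replicate 3 (0.0978). MT-RNR2, the 16S rRNA of the large subunit, was at 10582, 10907 and 7317 CPM in shNTC+Dox, against 8437, 4961 and 6746 CPM in shEHD1+Dox. Its groups overlapped, with shNTC+Dox replicate 3 below shEHD1+Dox replicate 1, and its log2 fold change of -0.52 (95% confidence interval from -1.02 to -0.01) did not pass (edgeR adjusted p = 0.145). The other 2 controls lay above all 3 knockdown libraries. The log2 fold change was -0.68 without shNTC+Dox replicate 3 (edgeR adjusted p = 0.0858) and -0.34 without shEHD1+Dox replicate 2 (edgeR adjusted p = 0.288).

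The 2 rRNAs did not keep pace with the mRNAs in shNTC+Dox replicate 3. The ratio of rRNA to mRNA counts was 0.500, 0.451 and 0.264 in shNTC+Dox replicates 1, 2 and 3 and 0.553, 0.417 and 0.574 in shEHD1+Dox replicates 1, 2 and 3. The replicate 3 control was highest in all 13 mRNAs and lowest in both rRNAs. Poly(A) selection, on which the library kit relies, draws on the short tails of mitochondrial RNAs, and the length of those tails was not measured. Among 29 RNAs listed because they mostly lack a poly(A) tail, 10 were tested. Of these, 2 rose and 2 fell, where 8.59% of all genes tested rose and 8.75% fell. H2BC5 and H1-2, both histone genes, rose, and RN7SL1 and RN7SL2, the RNA of the signal recognition particle, fell. The summed level of the 10 was 34.0 to 43.3 CPM in shNTC+Dox and 57.1 to 71.0 CPM in shEHD1+Dox. This rise came mainly from H2BC5 and H1-2 (log2 fold change 1.33 and 1.03), whose means in shEHD1+Dox were 32.6 and 20.8 CPM. It was not shared by the whole list, since 4 of the 10 had a log2 fold change below 0. The part of these RNAs in the result was not tested.

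**Figure D4:**
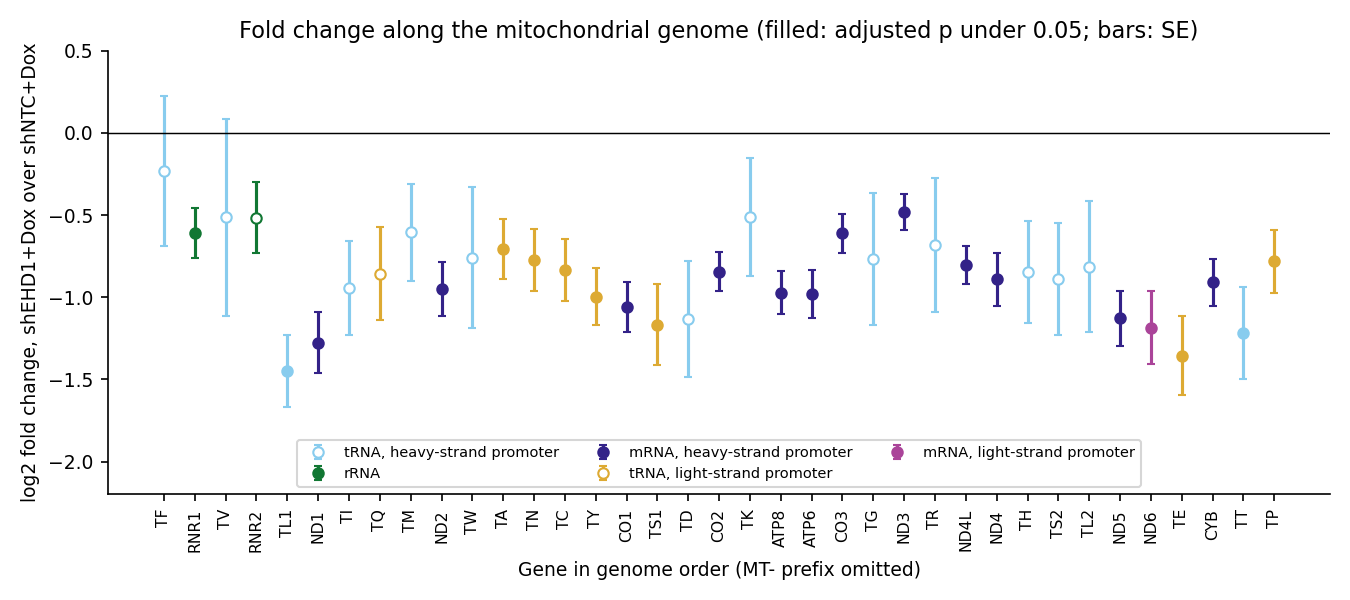
Log2 fold change of shEHD1+Dox over shNTC+Dox (y axis) for the 37 genes in genome order (x axis); points are edgeR estimates, bars 1 SE, colours mark class and promoter strand, and filled points passed an adjusted p of 0.05. Every point lies below 0, from MT-TL1 at -1.45 to MT-TF at -0.23, and the tRNA bars reach a SE of 0.60.

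Mature tRNAs carry amino acids to the mitochondrial ribosome. The tRNA rows had far fewer counts than the mRNAs, from a mean of 21.3 to 836 per library, against 8499 to 129437 for the mRNAs. Per kilobase, the tRNA rows stood at 15.1 to 641 CPM per kb in shNTC+Dox and the mRNAs at 870 to 4804. A tRNA gene is about as long as 1 read, so a read counted on it can extend into a neighbouring gene, and how such reads were divided is not stated in the sources used here. The tRNA rows are therefore described as reads over tRNA genes and not as mature tRNAs.

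Of the 22 tRNA rows, 9 fell and 13 did not pass, where 8.75% of all genes tested fell. MT-TL1, the tRNA for leucine shown above between MT-RNR2 and MT-ND1, had the largest fall of all 37 rows, from 12.6, 14.1 and 22.3 CPM to 6.80, 5.76 and 5.36 CPM (log2 fold change -1.45, SE 0.22, edgeR adjusted p = 0.00367). Its counts were 1.37% ± 0.07 of those of MT-ND1 across the controls and 1.23% ± 0.03 across the knockdown libraries (SD, n = 3 each). The log2 fold change of the row lay nearer to that of MT-ND1 on its right (-1.28) than to that of MT-RNR2 on its left (-0.52). MT-TE, the glutamate tRNA next to MT-ND6, fell from 13.9, 15.7 and 26.7 CPM to 8.31, 6.98 and 6.68 CPM (log2 fold change -1.36, SE 0.24, edgeR adjusted p = 0.00787). MT-TT, the threonine tRNA after MT-CYB, had a log2 fold change of -1.22 (SE 0.28, edgeR adjusted p = 0.0206), and MT-TS1, a serine tRNA on the opposite strand just past MT-CO1, one of -1.17 (SE 0.25, edgeR adjusted p = 0.0203). Those of MT-TT and MT-TS1 did not pass without shEHD1+Dox replicate 2 (edgeR adjusted p = 0.0772 and 0.0617) or replicate 3 (0.0858 and 0.0741).

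By promoter, 7 of 8 light-strand and 2 of 14 heavy-strand tRNA rows fell, where 8.75% of all genes tested fell. The median log2 fold changes were -0.85 and -0.79. The standard errors of the rows ran from 0.17 to 0.28 and from 0.22 to 0.60, respectively, and the difference between the strands was not tested. MT-TA, MT-TN, MT-TC and MT-TY, the light-strand tRNAs for alanine, asparagine, cysteine and tyrosine, form a cluster between MT-ND2 and MT-CO1. Their log2 fold changes were -0.71, -0.77, -0.83 and -0.997. MT-TY passed whichever of the 6 libraries was left out, whereas MT-TA passed only without shEHD1+Dox replicate 1. MT-TN and MT-TC did not pass without shNTC+Dox replicate 2 or 3 or shEHD1+Dox replicate 3, where the edgeR adjusted p lay between 0.05 and 0.0828. MT-TP, the proline tRNA nearest to the control region, fell by 0.78 on the log2 scale (SE 0.19, edgeR adjusted p = 0.0257) but missed the threshold without any one of the shEHD1+Dox libraries (edgeR adjusted p between 0.0567 and 0.0994). Only MT-TQ among the light-strand rows did not pass, at -0.86 (edgeR adjusted p = 0.0696).

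The rows that did not pass were spread widely between libraries. MT-TF and MT-TV, the phenylalanine and valine tRNAs on either side of MT-RNR1, were at 31.6, 31.4 and 16.2 CPM and at 15.9, 14.5 and 6.89 CPM in shNTC+Dox. In shEHD1+Dox they were at 33.4, 11.4 and 22.8 CPM and at 15.05, 3.35 and 7.75 CPM. Both were low in shNTC+Dox replicate 3 and shEHD1+Dox replicate 2, the libraries with the lowest MT-RNR2 of their groups. The fold change of MT-TF, -0.23 with a 95% confidence interval from -1.38 to 0.92, turned to 0.08 without shEHD1+Dox replicate 2 and was -0.48 without shNTC+Dox replicate 3. That of MT-TV, -0.51, was -0.13 and -0.80 without these libraries. MT-TG, MT-TR, MT-TH, MT-TS2 and MT-TL2, which lie around MT-ND3 and between MT-ND4 and MT-ND5, had log2 fold changes from -0.89 to -0.68 and were highest in shNTC+Dox replicate 3. Without that library these values shrank to -0.15, -0.10, -0.36, -0.37 and -0.22, in the same order. MT-TL2, for example, was at 6.38, 7.97 and 18.3 CPM in shNTC+Dox, against 7.65, 5.55 and 5.32 CPM in shEHD1+Dox. The 6 tRNA rows with a mean under 100 counts, which were MT-TI, MT-TQ, MT-TM, MT-TW, MT-TD and MT-TK, had log2 fold changes from -1.13 to -0.51, and none passed, whereas 9 of the 16 with more counts did. Without shNTC+Dox replicate 3 those of the 6 rows ran from -0.85 to -0.24.

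Stretches of mitochondrial DNA copied into the nuclear chromosomes can take up reads of these transcripts. Of the 16495 windows of 75 bases in the mitochondrial genome, 14.4% were found letter for letter on a nuclear chromosome, 1970 of them on chromosome 1. Among windows that contain a whole tRNA gene, 100% were found for MT-TQ, MT-TA, MT-TN and MT-TS1, of the light strand, and for MT-TK, of the heavy strand. For MT-TE 14.3% and for MT-TW 12.5% were found, and none for the other tRNA genes. The comparison of tRNA rows by promoter carries this uncertainty mainly on the light-strand side. The table lists 394 rows for such nuclear copies, 337 of which had no count, and 9 had a mean of at least 10 counts. These 9 held 99.8% of the counts on nuclear copies. All copies together took 0.151% ± 0.024 of a control library and 0.0787% ± 0.0129 of a knockdown library (SD, n = 3 each).

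The 6 copies on chromosome 1 fell by about as much as the gene each resembles. MTCO1P12 (chromosome 1 from 631074 to 632616 in hg38, 98.6% identical to the mitochondrial genome) held 9.62% as many counts as MT-CO1, and its log2 fold change was -1.02, against -1.06 for MT-CO1. MTND2P28 (98.4% identical) held 19.5% as many counts as MT-ND2, with -0.88 against -0.95, and MTATP6P1 (98.5% identical) held 17.9% as many as MT-ATP6, with -1.02 against -0.98. MTCO3P12 changed by -0.58 and MT-CO3 by -0.61, MTND1P23 by -1.27 and MT-ND1 by -1.28, and MTCO2P12 by -0.91 and MT-CO2 by -0.84. These copies match mitochondrial reads, so their rows are uncertain and are no separate evidence. When each copy was summed with its mitochondrial gene, 23 rows fell as before, and the median of the mRNAs was -0.94. The other 3 copies did not match their gene as closely. MTCO1P40, on chromosome 17, had 9 to 16 counts per library and did not pass (log2 fold change -0.03, edgeR adjusted p = 0.969), against -1.06 for MT-CO1. MTND6P4, on chromosome 5, had 12 to 43 counts and fell by 1.58 on the log2 scale (SE 0.31, edgeR adjusted p = 0.0109), against -1.18 for MT-ND6. MTND4P12, also on chromosome 5, had 92, 0 and 0 counts in shEHD1+Dox and 113, 123 and 166 in shNTC+Dox, and did not pass (log2 fold change -2.30, SE 1.54, edgeR adjusted p = 0.379), against -0.89 for MT-ND4.

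The nuclear genes that act on mitochondrial RNA were examined as fixed lists. Of 7 genes for mitochondrial transcription, 2 fell and none rose (median log2 fold change -0.17), where 8.75% of all genes tested fell and 8.59% rose. POLRMT, the mitochondrial RNA polymerase, was at 94.1 ± 5.8 and 83.6 ± 7.2 CPM and TFAM, which packages the genome and opens its promoters, at 124 ± 9 and 114 ± 16 CPM (SD, n = 3 each), and neither passed (edgeR adjusted p = 0.199 and 0.455). The genes that fell were MTERF1 and MTERF2, members of the mitochondrial transcription termination factor family, at -0.40 and -0.42 (edgeR adjusted p = 0.0264 and 0.0234). Of 13 RNA processing genes, 2 fell (FASTKD1 at -0.45 and FASTKD3 at -0.40), and DESeq2 called 4. None of the transcription, processing or biogenesis genes rose at the unadjusted p or in DESeq2.

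Of 10 genes for RNA stability and decay, 3 fell and 1 rose, where 8.75% of all genes tested fell and 8.59% rose. LRPPRC and SLIRP form the complex that binds and stabilises mitochondrial mRNAs. LRPPRC fell from 539 ± 19 to 431 ± 23 CPM (log2 fold change -0.32, SE 0.07, edgeR adjusted p = 0.0143), and SLIRP from 55.0 ± 2.5 to 44.7 ± 4.2 CPM (log2 fold change -0.30, SE 0.09, edgeR adjusted p = 0.045). ANGEL2, a phosphatase related to the deadenylases, fell most of the 10, by 1.18 on the log2 scale (SE 0.09, edgeR adjusted p = 1.55e-04), and REXO2, an exonuclease of short RNAs, rose by 0.31. Among 13 genes for mitochondrial DNA replication and nucleotide supply, 4 rose (LIG3, RRM2B, DGUOK and TOP1MT, from 0.29 to 0.52) and 1 fell. Of the 12 regulators of mitochondrial biogenesis tested, 3 fell, namely PPARGC1B (-0.68), ESRRA (-0.44) and MYC (-0.30), and none rose.

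Among the other mitochondrial lists, some held genes that passed in both directions and others did not, where 17.3% of all genes tested passed. Of 15 translation factors tested 1 fell (MRRF at -0.30), of 20 tRNA synthetases 1 fell and 2 rose, and of 19 genes for rRNA modification and ribosome assembly 1 fell and 1 rose. None of the 15 chaperone, protease and import genes passed in edgeR, with a median log2 fold change of -0.10. At the unadjusted p, 5 were lower and 2 higher, and DESeq2 called 3 lower and 1 higher and limma-voom 0. Of 9 mitophagy genes tested, BNIP3 and CALCOCO2 rose (0.56 and 0.34) and BNIP3L fell (-0.59). Of 9 genes for mitochondrial fusion and fission, OPA1 (-0.29) and MIEF1 (-0.35) fell and MFF rose (0.22).

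The nuclear-encoded subunits of the same complexes had smaller log2 fold changes. Of 77 subunits of complexes I to V tested, 21 fell and none rose, where 8.75% of all genes tested fell and 8.59% rose. At the unadjusted p, 41 were lower and 0 higher. DESeq2 called 29 lower and 0 higher, against 1859 lower and 1755 higher of all 16785 genes tested. The median log2 fold change of the 77 was -0.19, with a range from -0.60 to 0.31. By complex, 6 of 37 fell in complex I, 1 of 4 in complex II, 2 of 9 in complex III, 4 of 11 in complex IV and 8 of 16 in ATP synthase. COX7B, a small subunit of complex IV, had the largest of these falls, from 148 ± 10 to 97.8 ± 7.6 CPM (log2 fold change -0.60, SE 0.08, edgeR adjusted p = 0.00217). The falls of 12 of the 13 mitochondrial mRNAs were larger than that of COX7B. In complex II, which has no mitochondrially encoded subunit, SDHD fell by 0.42 on the log2 scale (edgeR adjusted p = 0.00339).

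**Figure D5:**
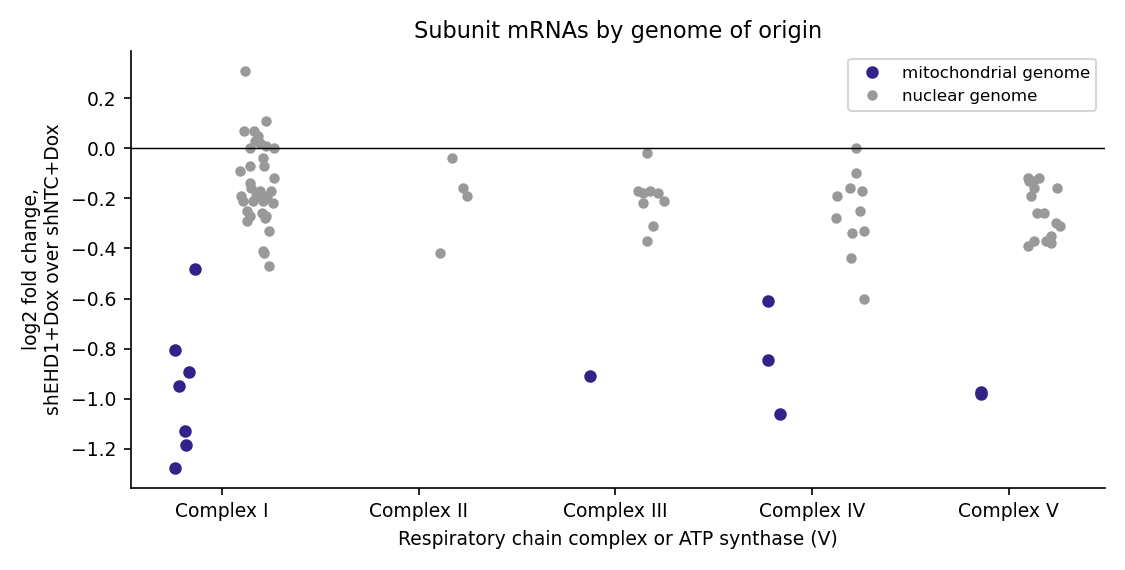
Log2 fold change of shEHD1+Dox over shNTC+Dox (y axis) of subunit mRNAs by complex (x axis); dark points are encoded in the mitochondrial genome and grey points in the nucleus, and points are spread sideways for visibility. The mitochondrial mRNAs of complexes I, III, IV and V lie between -1.28 and -0.48 and the nuclear ones between -0.60 and 0.31.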

How the data were processed

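Whole-number gene counts of 6 TC71 libraries were used, 3 per group, as deposited by the authors without normalization. The study's methods name hisat2 with Ensembl annotation on hg38 and StringTie, and the submitters' processing notes list STAR 2.7.3a, so the aligner is not settled. How reads matching several places were counted is not given in the sources used here. Genes reaching 10 counts in 3 or more libraries were scaled by TMM and tested with edgeR 4.0.16 in R 4.3.3 (glmQLFit, robust, and glmQLFTest) with Benjamini-Hochberg adjustment over 16785 genes. A row fell or rose at an adjusted p under 0.05. The study's threshold adds a 2-fold change. Confidence intervals are at 95%. Total counts were 22711235 to 30582187 per library.

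The members, the gene lists and the rule for named genes (all MT- rows, nuclear copies with a mean of at least 10 counts, POLRMT, TFAM, LRPPRC, SLIRP and EHD1, and up to 4 called genes of each list with the largest change at a mean of at least 1 CPM) were chosen with earlier results of these data known. The pool ratios, H2BC5 to RN7SL2 as examples, and the leave-out values named in the text were picked after the values were seen. Coordinates and sequences came from hg38 and GENCODE 44, whose gene identifiers matched all 37 rows, and identity was measured with blastn 2.17.0. DESeq2 1.42.0, limma 3.58.1, other scalings and filters, a replicate block and each library left out in turn were alternatives. The tests were run on simulated data first. No value column was left unused. Of 8 nuclear-retained RNAs fixed as a list, 7 were tested and 2 fell (OIP5-AS1 and TUG1), and of 12 Ewing sarcoma genes 2 fell and 1 rose. Of 18 markers of other cell types 6 were tested and 1, DCN, fell. Over all genes tested, 8.75% fell and 8.59% rose.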

Additional observations from a re-analysis of the deposited data

How the results depend on the processing

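The number of MT- rows that fell was 23, and between 20 and 26 with library totals, the size factors of DESeq2, TMM without the MT- rows, other filters, the Wald test of DESeq2, limma-voom, the replicate block or counts summed with nuclear copies, with no row higher. Leaving out 1 library gave 15 to 22, lowest without shEHD1+Dox replicate 3, with 0 rows higher and 12 or 13 of the 13 mRNAs lower. The median of the mRNAs then ran from -1.07 to -0.81 and the log2 ratio of the mean share of library counts from -0.92 to -0.67. The same-numbered libraries correlated at 0.072, -0.0593 and -0.0448 in their deviations from the group means, against a mean of 0.00602 for differently numbered ones. These values show no deviation shared by number. They cannot tell whether same-numbered libraries were prepared together, which is not given in the sources used here. With the replicate block 20 rows fell, and MT-ND6, MT-TS1 and MT-TP did not pass (edgeR adjusted p = 0.0677, 0.0526 and 0.0628). Over all genes tested, 1469 were lower and 1441 higher, 892 and 874 with the block, and 671 to 1732 and 603 to 1883 with 1 library left out.

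Scaled to the summed MT- count, which removes a change common to the rows, 3 rows were lower and 1 higher, the median of all genes tested moved to 0.82 with 121 lower and 12481 higher, and the median of the mRNAs was -0.12. Relative to that pool, the log2 fold changes of MT-ND3, MT-ND4L, MT-CO3, MT-RNR1 and MT-RNR2 were 0.34, 0.01, 0.21, 0.18 and 0.26. Those of MT-TF, MT-TV, MT-TM, MT-TK, MT-TG, MT-TR, MT-TL2, MT-TA, MT-TN and MT-TP were 0.51, 0.19, 0.20, 0.28, 0.06, 0.13, 0.01, 0.09, 0.02 and 0.04. With 1 library left out, MT-TF ranged from -0.62 (without shEHD1+Dox replicate 1) to 0.08 (without shEHD1+Dox replicate 2). As shares of mRNA and rRNA counts together, MT-ND4, MT-CYB and MT-CO2 had log2 ratios of -0.07, -0.11 and -0.04, opposite in sign to their shares of mRNA counts alone. None of the 6 tRNA rows with a mean under 100 counts passed, but rows with more counts and larger errors, such as MT-TF and MT-TV, did not pass either, and the part of depth was not tested.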
